A study of Mus musculus with 6 samples.

Results

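R-spondins are secreted proteins that raise the response of a cell to Wnt ligands. They bind the leucine-rich repeat receptors Lgr4, Lgr5 and Lgr6 together with the membrane ubiquitin ligases Znrf3 and Rnf43. The ligases otherwise mark Frizzled and Lrp6, the receptors of Wnt, for removal from the cell surface. In the complex the ligase itself is cleared and Frizzled stays at the surface. Znrf3 and Rnf43 are also Wnt target genes in many tissues, so they act as a feedback brake. In the lung of mice, Rspo2 from the mesenchyme is needed for normal branching, and in adult mice Lgr5 and Lgr6 mark different mesenchymal cells, with Lgr6 found near airway smooth muscle.

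The 9 genes described here are Lgr4, Lgr5, Lgr6, Rspo1, Rspo2, Rspo3, Rspo4, Znrf3 and Rnf43, taken by symbol from a count table of 55335 genes. The set was chosen by measured values, because Lgr6 is among the genes with the lowest CPM in Gata4 CKO lungs relative to control lungs. The contrast between those groups therefore chose the set, and its values are given for the 9 genes as a description, without a test. Whole lungs of mouse embryos at embryonic day 18 were profiled by stranded mRNA sequencing, with 1 library per embryo. The 3 Gata4 CKO embryos carry Prx1Cre with Gata4 F/D, that is 1 floxed allele and 1 deleted allele of the transcription factor Gata4. The 3 control embryos carry Prx1Cre with Gata4 F/+, so Cre and a floxed allele are common to all 6. Prx1Cre acts in the lateral plate mesoderm, and by genotype Gata4 CKO cells without active Cre keep their floxed allele beside the deleted one. Per the design text, the deletion leads to a defective diaphragm and small lungs, and the comparison bears on how that small size arises.

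Total counts ranged from 15156415 to 29749277 in Gata4 CKO libraries and from 20851989 to 30848948 in control libraries. Gata4 itself averaged 4.65 ± 1.30 CPM (read counts scaled to library size) in Gata4 CKO and 3.30 ± 0.54 CPM in control (SD, n = 3 each). It was thus not lower in the libraries labelled Gata4 CKO, so that every direction below rests on the labels. Whole-gene counts can include exons outside the deleted part, and whole lung holds cells without active Cre. The part of either in the Gata4 values was not tested. Of 6 lung epithelium markers, Sftpc (surfactant protein C) held most of the reads, at 12533 ± 3520 CPM in Gata4 CKO and 7431 ± 2006 CPM in control (SD, n = 3 each). Of the other 5 markers, Krt18, Epcam and Krt8 had log2 fold changes of 0.48, 0.24 and 0.19, and Cdh1 and Nkx2-1 had -0.10 and -0.07. Sftpc and Krt18, 33.3% of the list, had every Gata4 CKO library above every control, beside 7.69% of all genes tested. The skeletal muscle regulator Myod1 had 0 reads, and Myog had 1 to 7 reads in Gata4 CKO libraries and 0 or 1 in control libraries. Of the 7 skeletal muscle markers 4 could be tested, with 2 positive and 2 negative log2 fold changes. Ckm, the most abundant, averaged 27.8 ± 9.55 CPM in Gata4 CKO and 19.5 ± 3.33 CPM in control (SD). The 6 cardiomyocyte markers summed to 300.8 to 572.1 CPM in Gata4 CKO and 297.4 to 383.2 CPM in control, so that their ranges overlapped. In Gata4 CKO 1 long transcripts were under-represented. Genes of at least 6.33 kb of exon had a median log2 deviation of -0.359 there, against values from 0.053 to 0.103 in the other 5 libraries. Over all genes, edgeR called 0 of 17075 (smallest adjusted p = 0.529), with 1482 at an unadjusted p under 0.05, while DESeq2 called 109 and limma-voom 0.

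Lgr6 was the member with the lowest relative value in Gata4 CKO lungs, and Rspo1 the member with the highest. All 9 members passed the filter on low counts, and 5 of them had a negative log2 fold change. The members' median was -0.03, against 0.01 over all 17075 genes. The groups did not overlap for 1 member in the lower direction (Lgr6) and 1 in the higher direction (Rspo1). Over all genes tested, 9.08% had every Gata4 CKO library below every control library and 7.69% had every one above. edgeR called 0 of the 9 members, with a background of 0%, and DESeq2 called 1, Lgr6, with a background of 0.661%. These counts come from the contrast that chose the set and nothing is read from them. In whole lung, fewer cells of a type and less RNA per cell cannot be told apart.

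**Figure D1:**
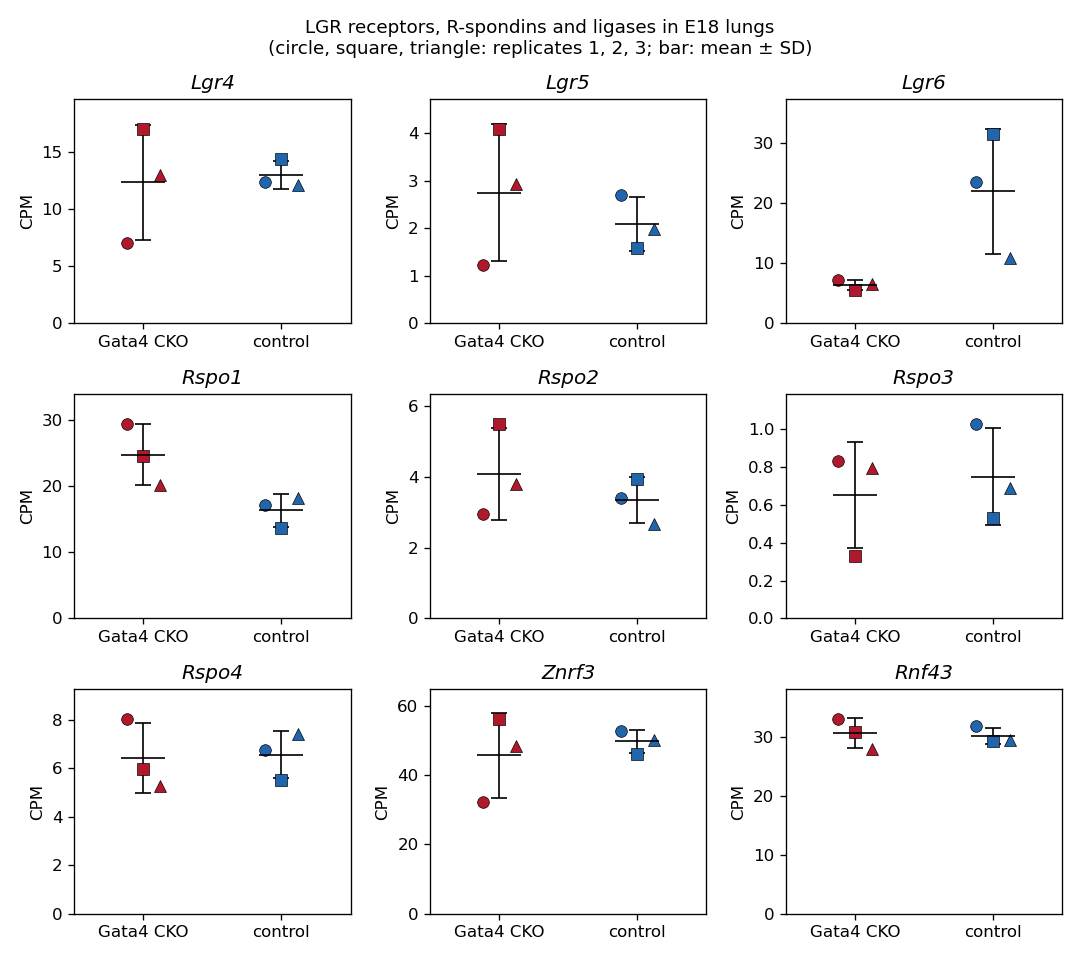
TMM-scaled CPM (y axis, linear, from 0) of each of the 9 members in the 3 Gata4 CKO and 3 control libraries (circle, square and triangle for replicates 1, 2 and 3), with the mean and SD. The groups separate for Lgr6, where Gata4 CKO libraries lie between 5.56 and 7.23 CPM and control libraries between 10.9 and 31.5 CPM, and for Rspo1, and overlap for the other 7 members.

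Lgr6 is an R-spondin receptor that marks stem cells of the hair follicle in mice. The gene (ENSMUSG00000042793, protein-coding) lies on chromosome 1 from 134983301 to 135105276 on the minus strand of GRCm38, with 20 exon blocks. It had 7.23, 5.56 and 6.54 CPM in Gata4 CKO 1, 2 and 3, from 148, 84 and 198 reads. Its values in controls 1, 2 and 3 were 23.6, 31.5 and 10.9 CPM, from 505, 656 and 332 reads. Every Gata4 CKO library was below every control, the Gata4 CKO libraries lay close together, and control 3 was far below the other controls. The means were 6.44 ± 0.84 CPM in Gata4 CKO and 21.97 ± 10.39 CPM in control (SD, n = 3 each). Its log2 fold change of -1.76 ± 0.37 (SE) was the 8th lowest of 17075 tested genes. Leaving out each library in turn gave values from -2.09 (without control 3) to -1.41 (without control 2). Gata4 CKO 1 and controls 1 and 2 share a number (4229) in their column labels, whose meaning the labels do not give. Within it, Lgr6 in Gata4 CKO 1 was 0.263 times the mean of those controls, and the other numbers each hold a single group.

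The 250 bases before the annotated start of Lgr6 are shown with those of Rspo1, since these are the members whose groups did not overlap. Both are from RefSeq on GRCm38.p6, read 5′ to 3′ on the strand of the gene, and capitals mark the GC box CCGCCC, a binding site of SP and KLF factors.
Lgr6, chr1:135105277-135105526, minus strand: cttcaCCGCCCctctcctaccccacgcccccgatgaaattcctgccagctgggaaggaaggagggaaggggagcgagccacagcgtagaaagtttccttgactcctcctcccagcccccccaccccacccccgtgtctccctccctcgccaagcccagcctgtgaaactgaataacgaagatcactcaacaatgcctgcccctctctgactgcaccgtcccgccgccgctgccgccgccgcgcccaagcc
Rspo1, chr4:124986180-124986429, plus strand: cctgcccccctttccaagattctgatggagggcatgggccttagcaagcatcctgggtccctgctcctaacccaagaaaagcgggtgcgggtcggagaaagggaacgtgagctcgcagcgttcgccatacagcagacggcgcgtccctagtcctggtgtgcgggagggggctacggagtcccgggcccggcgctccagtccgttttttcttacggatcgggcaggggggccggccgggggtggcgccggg
The GC box was searched on both strands. It occurs 1 time in the Lgr6 window and 0 times in the Rspo1 window, and 32.74% of 32851 such windows hold at least 1. Windows were at hand for 5 members (Lgr4, Lgr6, Rspo1, Rspo4 and Rnf43), 6 windows in all, and of these only Lgr6 and Rspo4 hold a GC box. The letters CTTTGAT, the core of the TCF/LEF site of the Wnt pathway, are in 0 of the 6 windows and in 3.21% of all windows, on either strand. The letters GATAA, a core bound by GATA factors, are in 0 of the 6 windows and in 22.58% of all.

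Lgr4, the most broadly expressed receptor of the family in mice, lies on chromosome 2 from 109917647 to 110014257 on the plus strand. It had 7.04, 17.0 and 12.9 CPM in Gata4 CKO 1, 2 and 3, against 12.4, 14.3 and 12.1 CPM in controls 1, 2 and 3. Gata4 CKO libraries lay on both sides of the controls, with Gata4 CKO 1 lowest and Gata4 CKO 2 highest. The log2 fold change was -0.07 ± 0.30 (SE), and it was 0.21 without Gata4 CKO 1. Lgr5, known as a stem cell marker of the intestinal crypt, lies on chromosome 10 from 115450311 to 115587780 on the minus strand. It had 1.22, 4.10 and 2.94 CPM in Gata4 CKO and 2.71, 1.58 and 2.00 CPM in control. Here too Gata4 CKO 1 was the lowest library and Gata4 CKO 2 the highest, from only 25 to 89 reads per library. The log2 fold change of Lgr5 was 0.38 ± 0.44 (SE), with 0.01 without Gata4 CKO 2 and 0.74 without Gata4 CKO 1. Lgr4 and Lgr5 have 5.884 and 10.264 kb of exon, and Lgr6 has 6.851 kb. With the trend of each library with length and GC content removed, the log2 fold changes were -0.03 for Lgr4, 0.44 for Lgr5 and -1.69 for Lgr6.

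Rspo1, an R-spondin needed for ovary development in mice and known from mesothelial cells, lies on chromosome 4 from 124986430 to 125009099 on the plus strand (ENSMUSG00000028871). It had 29.5, 24.6 and 20.2 CPM in Gata4 CKO 1, 2 and 3, against 17.2, 13.6 and 18.3 CPM in controls 1, 2 and 3. Every Gata4 CKO library was above every control, with Gata4 CKO 3 and control 3 close together. The means were 24.8 ± 4.64 CPM in Gata4 CKO and 16.4 ± 2.44 CPM in control (SD, n = 3 each). This is a log2 fold change of 0.60 ± 0.20 (SE), which ran from 0.45 without Gata4 CKO 1 to 0.73 without Gata4 CKO 3. Rspo1 has 1.938 kb of exon, and genes of at most 2.29 kb had a median log2 deviation of 0.272 in Gata4 CKO 1, where Rspo1 was highest. With the length and GC trends removed its log2 fold change was 0.50. The 5 mesothelium markers overlapped between groups, with summed levels of 395.6 to 489.6 CPM in Gata4 CKO and 423.7 to 522.5 CPM in control.

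Rspo4, which is linked to nail formation in humans, lies on chromosome 2 from 151842927 to 151874668 on the plus strand. It had 8.06, 5.96 and 5.28 CPM in Gata4 CKO and 6.76, 5.52 and 7.44 CPM in control, a log2 fold change of -0.03 ± 0.24 (SE). The groups overlapped throughout. Rspo2 lies on chromosome 15 from 43020794 to 43170826 on the minus strand. It had 2.93, 5.49 and 3.80 CPM in Gata4 CKO and 3.41, 3.93 and 2.65 CPM in control, a log2 fold change of 0.29 ± 0.30 (SE). Its highest library was Gata4 CKO 2, without which the value was 0.03, and without Gata4 CKO 1 it was 0.47. Rspo3, needed for blood vessels of the placenta in mice, lies on chromosome 10 from 29452416 to 29535867 on the minus strand.

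Few reads of Rspo3 were found, with 17, 5 and 24 in Gata4 CKO 1, 2 and 3. Controls 1, 2 and 3 held 22, 11 and 21 of its reads. The exact 95% Poisson interval of the lowest count, 5 reads, runs from 1.6 to 11.7 and that of the highest, 24 reads, from 15.4 to 35.7, which cover counting error only. Its log2 fold change was -0.15 ± 0.45 (SE), and leaving out 1 library moved it between -0.35 and 0.13. Rspo3 also shares 404 bases of exon with Gm48159, an antisense gene on the other strand. The strand setting of the counting is not given in the sources used here, so reads of that pair may be mixed. The other 8 members share no exon base with another annotated gene.

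The log2 fold changes of both ligases were within 1 SE of 0 in the 2-group fit. Znrf3, on chromosome 11 from 5276324 to 5444847 on the minus strand, had 32.4, 56.5 and 48.6 CPM in Gata4 CKO 1, 2 and 3, against 52.9, 46.3 and 50.4 CPM in controls 1, 2 and 3. Gata4 CKO 1 stood apart below the other 5 libraries. The log2 fold change was -0.12 ± 0.21 (SE), and 0.08 without Gata4 CKO 1. Rnf43, also on chromosome 11, from 87662722 to 87735539 on the plus strand, had 33.1, 30.8 and 28.0 CPM in Gata4 CKO and 31.8, 29.3 and 29.5 CPM in control. All 6 libraries lay within that narrow range, and the log2 fold change was 0.02 ± 0.14 (SE).

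Levels were compared between members per length, as reads per kilobase of summed exon (RPKM, that is CPM divided by exon length). In Gata4 CKO the order was Rspo1 at 12.8 ± 2.39, Znrf3 at 5.81 ± 1.55, Rnf43 at 4.67 ± 0.39, Rspo4 at 2.71 ± 0.61, Lgr4 at 2.09 ± 0.85, Lgr6 at 0.94 ± 0.12, Rspo2 at 0.80 ± 0.26, Lgr5 at 0.27 ± 0.14 and Rspo3 at 0.21 ± 0.09 RPKM (SD, n = 3). In control the order was Rspo1 at 8.45 ± 1.26, Znrf3 at 6.32 ± 0.42, Rnf43 at 4.61 ± 0.21, Lgr6 at 3.21 ± 1.52, Rspo4 at 2.77 ± 0.41, Lgr4 at 2.20 ± 0.21, Rspo2 at 0.65 ± 0.13, Rspo3 at 0.24 ± 0.08 and Lgr5 at 0.20 ± 0.06 RPKM (SD, n = 3). Lgr6 thus stood in position 6 in Gata4 CKO and in position 4 in control. With the length of the longest transcript in place of summed exon it stood in position 7 in Gata4 CKO, below Rspo2. In Gata4 CKO the neighbours whose ranges overlapped were Znrf3 with Rnf43, Rspo4 with Lgr4, Lgr6 with Rspo2, and Lgr5 with Rspo3. In control they were Rnf43, Lgr6, Rspo4 and Lgr4 in a row, and Rspo3 with Lgr5. All other neighbours had ranges that did not overlap.

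The summed receptor level was 2.37, 4.10 and 3.44 RPKM in Gata4 CKO 1, 2 and 3, against 5.80, 7.19 and 3.84 RPKM in controls 1, 2 and 3. These ranges overlapped, because Gata4 CKO 2 was above control 3. Lgr6 made up 44.5%, 19.8% and 27.8% of that sum in Gata4 CKO and 59.3%, 63.9% and 41.4% in control. Lgr4 was the leading receptor in all 3 Gata4 CKO libraries and in control 3, while Lgr6 led in controls 1 and 2. The summed R-spondin level was 13.7 to 19.5 RPKM in Gata4 CKO and 10.3 to 13.3 RPKM in control. Rspo1 supplied 76.4% to 78.2% of it in Gata4 CKO and 68.3% to 70.9% in control, without overlap. Rspo4 supplied 15.3% to 17.5% in Gata4 CKO and 22.4% to 23.5% in control, also without overlap. The shares are parts of the same sum, so these separations are not independent. Rspo4 itself averaged 2.71 RPKM in Gata4 CKO and 2.77 RPKM in control, with groups that overlapped. The summed ligase level overlapped, with 9.16 to 11.9 RPKM in Gata4 CKO and 10.3 to 11.5 RPKM in control. The ratio of summed ligase to summed receptor RPKM was 3.87, 2.89 and 3.04 in Gata4 CKO 1, 2 and 3. It was 1.99, 1.44 and 2.84 in controls 1, 2 and 3. This ratio did not overlap between groups, but control 3 came within 0.1 of Gata4 CKO 2, and it contains Lgr6, on which the set was picked.

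**Figure D2:**
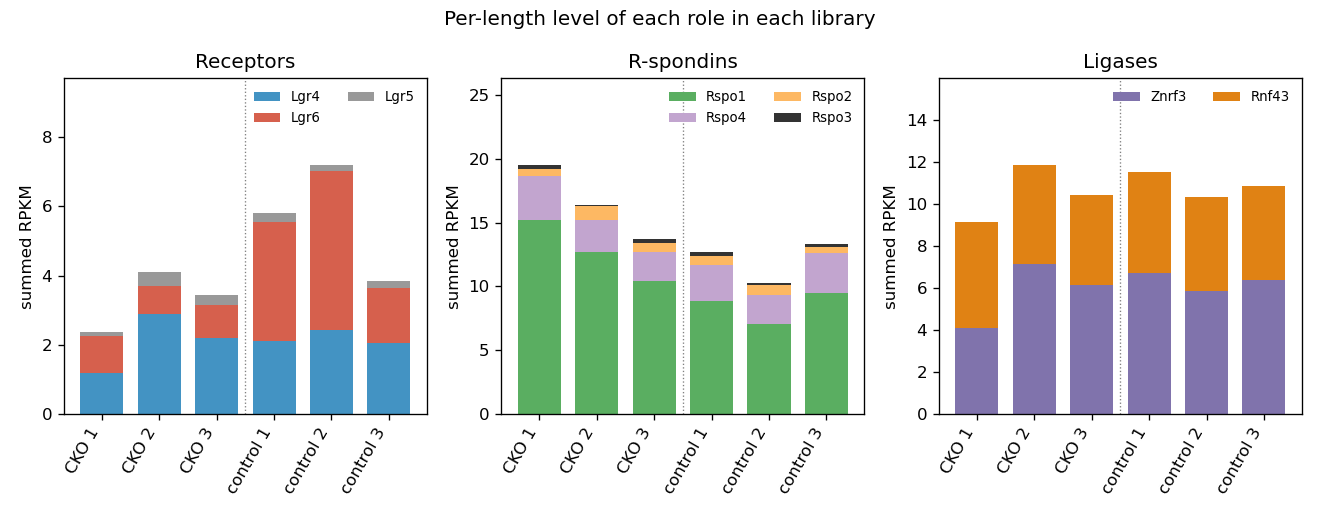
Stacked bars of RPKM (y axis, from 0) for receptors, R-spondins and ligases in each library, Gata4 CKO left of the dotted line and control right of it. Lgr6 is the larger part of the receptor bar in controls 1 and 2, Rspo1 is over 68% of every R-spondin bar, and the ligase bars range from 9.16 to 11.9 RPKM.

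The 5 genes whose profile over the 6 libraries was most like that of Lgr6 were Esco2, Slfn9, Egr3, Clspn and Anln, out of 15327 candidates with at least 1 CPM on average. Likeness was the root mean square difference of log2(CPM + 0.5) centred on each gene's mean, which was 0.157 for Esco2, 0.177 for Slfn9, 0.181 for Egr3, 0.189 for Clspn and 0.198 for Anln, against a median of 0.934 over the candidates. Esco2 is a cohesin acetyltransferase of S phase, Clspn (claspin) a mediator of the replication checkpoint, and Anln (anillin) a protein of the cytokinetic ring. Egr3 is an immediate early transcription factor, and Slfn9 a member of the Schlafen family. These genes were picked for their likeness to Lgr6, so their small differences and shared pattern follow from that pick. Each shows low values in all 3 Gata4 CKO libraries, high values in controls 1 and 2, and an intermediate value in control 3. Esco2, for example, had 4.93, 3.31 and 4.62 CPM in Gata4 CKO and 15.5, 16.4 and 6.16 CPM in control.

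Markers of cycling cells and of immune cells are given here beside the Lgr6 values. The 8 cycling-cell markers, among them Mki67 and Top2a, summed to 347.3, 200.1 and 320.5 CPM in Gata4 CKO 1, 2 and 3. The same sum was 767.7, 810.9 and 363.3 CPM in controls 1, 2 and 3, without overlap. Their mean log2 level, relative to the control mean, did overlap. It ran from -1.769 to -0.657 in Gata4 CKO and from -0.723 to 0.417 in control. All 8 had negative log2 fold changes, with a median of -1.14, and for 4 of the 8 the groups overlapped. The other 4 (50%) had every Gata4 CKO library below every control, beside 9.08% of all genes tested. DESeq2 called 4 of the 8 lower, beside a background of 0.661% in either direction, and edgeR called 0. Control 3 came close to the Gata4 CKO libraries as it did for Lgr6. The 5 immune markers all had positive log2 fold changes, with a median of 0.72. DESeq2 called 1 of the 5 higher, beside the same background, and edgeR called 0. In 3 of the 5 (60%) every Gata4 CKO library was above every control, beside 7.69% of all genes tested. These were Adgre1 (F4/80, a macrophage surface receptor) at 0.72 ± 0.16, Cd68 at 0.77 ± 0.23 and Csf1r at 0.32 ± 0.15 (SE). The immune markers summed to 1202 to 1215 CPM in Gata4 CKO, and to 464.6, 406.6 and 1274 CPM in controls 1, 2 and 3. These sums overlapped, since control 3 was above every Gata4 CKO library, and most of the reads came from Lyz2 (lysozyme). The part of cycling and immune markers in the Lgr6 values was not tested. The 6 smooth muscle markers summed to 338.2 to 507.6 CPM in Gata4 CKO and 439.5 to 555.5 CPM in control, so that their ranges overlapped. Of these 4 had negative log2 fold changes, led by Myh11, the smooth muscle myosin heavy chain, at -0.73 ± 0.17 (SE), and Tagln and Des stood at 0.14 and 0.11. Myh11 alone of the 6 (16.7%) had every Gata4 CKO library below every control, beside 9.08% of all genes tested. DESeq2 called 1 of the 6 lower, beside 0.661% of all genes in either direction, and edgeR called 0. The 6 fibroblast markers summed to 3103 to 3129 CPM in Gata4 CKO and 3338 to 3659 CPM in control, without overlap and with most reads from Col3a1. Of these 3 had negative and 3 positive log2 fold changes, with a median of -0.09, from -0.61 for Col1a1 (a collagen I chain) to 0.62 for Dcn (decorin). Col1a1 and Col3a1 (33.3% of the list) had every Gata4 CKO library below every control, beside 9.08% of all genes tested. The part of smooth muscle and fibroblast markers in the Lgr6 values was not tested.

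**Figure D3:**
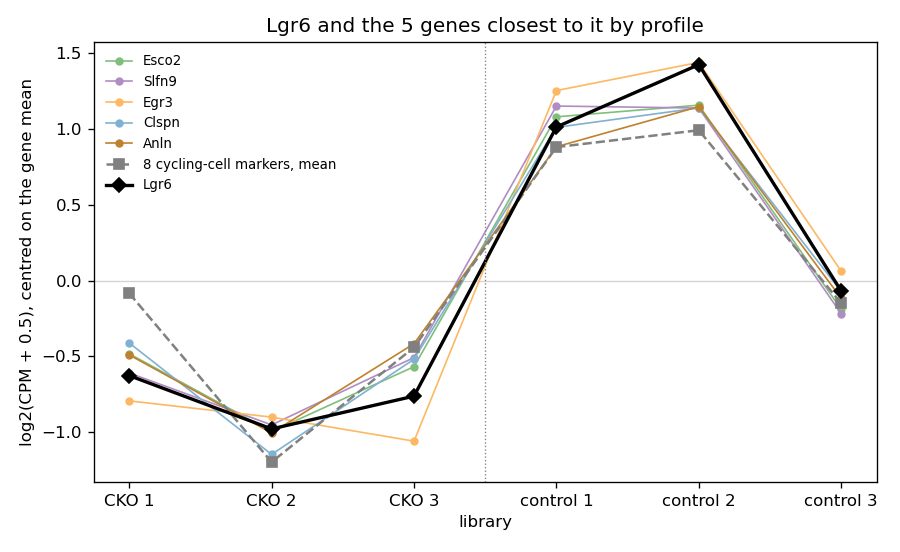
Log2(CPM + 0.5) centred on each gene's mean (y axis) by library (x axis, Gata4 CKO left of the dotted line) for Lgr6 (black), the 5 genes closest to it and the mean of 8 cycling-cell markers (grey, dashed). All curves are high in controls 1 and 2 and near 0 in control 3, and the curves of Lgr6 and the 5 genes are below 0 in every Gata4 CKO library.

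The rest of the Wnt pathway was described by 6 gene lists. edgeR called 0 genes higher and 0 lower in each of them, against a background of 0%. At an unadjusted p under 0.05 there were 5 of their 66 tested genes (7.58%), beside 8.68% of all genes tested. DESeq2 and limma-voom also called 0 of them, with a DESeq2 background of 0.661%. Of 16 tested Wnt target genes 13 had negative log2 fold changes, with a list median of -0.21, beside 0.01 over all genes. In 6 of the 16 (37.5%) every Gata4 CKO library was below every control, beside 9.08% of all genes, and in 1 (6.25%) above. The 4 most abundant were Nkd1, a feedback inhibitor, at -0.15 ± 0.19, Ccnd1 (cyclin D1) at -0.69 ± 0.20, the receptor Tnfrsf19 at -0.37 ± 0.17 and the adhesion receptor Cd44 at -0.24 ± 0.17 (log2 fold change, SE). Nkd1 stood at 0.01 without control 3, and without Gata4 CKO 1 Tnfrsf19 stood at -0.24 and Cd44 at -0.085. Ccnd1 had 128.6, 98.2 and 140.9 CPM in Gata4 CKO and 193.1, 237.9 and 163.8 CPM in control, without overlap and with control 3 again the lowest control.

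Axin2, Notum and Lef1 are common readouts of the pathway and were named after their values were seen. Axin2, a scaffold of beta-catenin destruction, averaged 62.5 ± 6.00 CPM in Gata4 CKO and 71.0 ± 3.97 CPM in control, a log2 fold change of -0.18 ± 0.14 (SE). Notum, a secreted Wnt deacylase, stood at 0.29 ± 0.24 and the transcription factor Lef1 at -0.32 ± 0.22. The groups overlapped for these 3 genes, but not for every target gene listed. The 6 with every Gata4 CKO library below every control include Ccnd1, Tnfrsf19 and Cd44, given above. The rest of them are Myc at -0.54 ± 0.26, Apcdd1 at -0.33 ± 0.16 and Tcf7 at -0.30 ± 0.17 (SE). The 1 with every Gata4 CKO library above every control is Bambi, at 0.29 ± 0.16 (SE).

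Among Frizzled and Lrp receptors, the substrates of the ligases and their partners, 9 of 11 tested had negative log2 fold changes, with a median of -0.12. In 3 of the 11 (27.3%) every Gata4 CKO library was below every control, beside 9.08% of all genes tested, and in 0 above. These were Fzd4 at -0.37 ± 0.18, Fzd1 at -0.35 ± 0.13 and Fzd7 at -0.19 ± 0.13 (SE). Without Gata4 CKO 1, Fzd4 stood at -0.21 and Fzd7 at -0.12. Lrp6 stood at -0.12 ± 0.30 and Lrp5 at -0.11 ± 0.17 (SE). Lrp6 had 105.3, 246.1 and 232.2 CPM in Gata4 CKO and 213.6, 201.0 and 218.5 CPM in control. Its low Gata4 CKO 1 value follows the pattern of Lgr4 and Znrf3, and without that library its log2 fold change was 0.18.

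Among 19 Wnt ligands 11 could be tested, and 7 of them had negative values, with a median of -0.01. Wnt5a, a ligand of non-canonical signalling, had the lowest value of the list at -0.76 ± 0.20, with 35.8, 46.2 and 52.3 CPM in Gata4 CKO and 81.3, 86.0 and 60.9 CPM in control. Wnt2, the most abundant ligand, stood at -0.01 ± 0.20, Wnt7b at -0.30 ± 0.29 and Wnt3a at 0.11 ± 0.21 (SE). Wnt2 stood at -0.24 without Gata4 CKO 1, and Wnt3a at -0.01. Of 18 genes of the beta-catenin core 12 had negative values, with a median of -0.09. Ctnnb1 (beta-catenin) stood at -0.18 ± 0.18, Csnk1a1 at -0.21 ± 0.22, the Wnt carrier Wls at 0.13 ± 0.17 and Apc at -0.05 ± 0.39 (SE). Apc stood at 0.32 without Gata4 CKO 1 and Csnk1a1 at -0.01.

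Heparan sulphate proteoglycans, which bind R-spondins and Wnts at the cell surface, were split, with 5 of 9 negative and a median of -0.13. Sdc1 (syndecan 1) stood at 0.32 ± 0.15, Sdc4 at 0.27 ± 0.16, Gpc3 at 0.06 ± 0.15 and Sdc2 at -0.13 ± 0.16 (SE). Sdc1 was the single member of the list (11.1%) with every Gata4 CKO library above every control, beside 7.69% of all genes. The glypicans Gpc2 at -0.70 ± 0.30, Gpc6 at -0.65 ± 0.41 and Gpc4 at -0.50 ± 0.14 (SE) had every Gata4 CKO library below every control, which is 33.3% of the list beside 9.08% of all genes. Gpc6 had 2.64 CPM in Gata4 CKO 1, far below its 8.34 and 9.31 CPM in Gata4 CKO 2 and 3. Among the other leucine-rich repeat receptors of the family only the relaxin receptor Rxfp1 was abundant enough to be tested. It had 1.42, 5.69 and 3.60 CPM in Gata4 CKO and 2.10, 2.83 and 2.03 CPM in control, a log2 fold change of 0.61 ± 0.46 (SE). As for Lgr4, Lgr5, Rspo2 and Znrf3, Gata4 CKO 2 was its highest library.

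**Figure D4:**
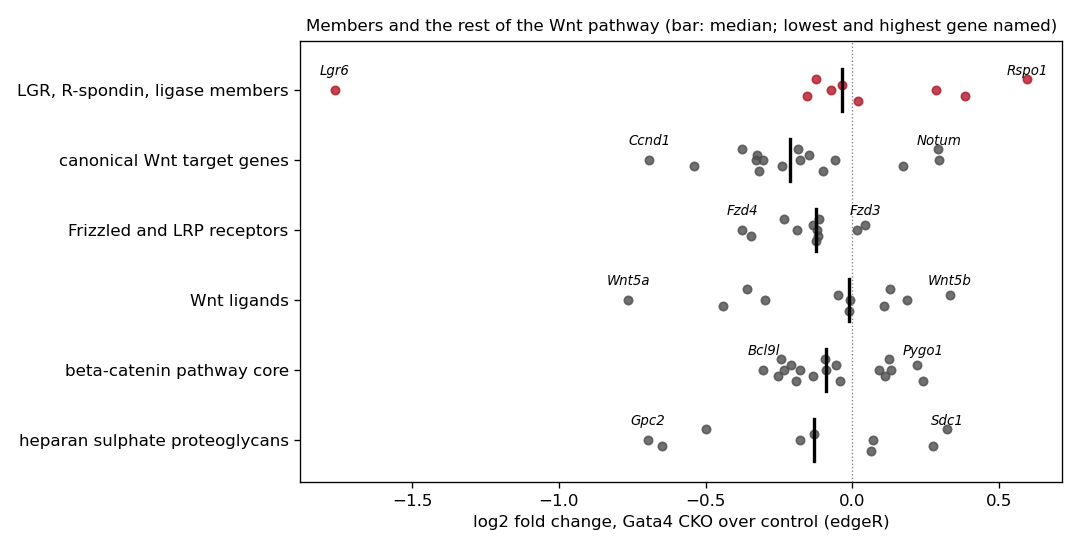
Log2 fold change of Gata4 CKO over control (x axis) for each tested gene of the members (red) and of 5 pathway lists (grey), with the median as a bar and the lowest and highest gene named. Lgr6, whose low value chose the set, is drawn at -1.76 and Rspo1 at 0.60, and the lowest gene of the pathway lists is Wnt5a at -0.76.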

How the data were processed

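The deposited table gives 6 columns of unscaled whole-number read counts by Ensembl gene ID, per the file headers. Per the submitters' processing notes, builds GRCm38 and mm10 were used with DESeq2 1.36.0, featureCounts 2.0.1 and STAR 2.7.10a, whose roles are not given. Replicates are biological, per the labels. Of 23377 rows without a symbol, 23239 were named by gene ID. filterByExpr (minimum count 10, minimum total 15) kept 17075 genes. After TMM scaling, edgeR 4.0.16 (R 4.3.3) compared Gata4 CKO with control by its quasi-likelihood test, with Benjamini-Hochberg adjustment at 0.05. Each SE was taken as the absolute log2 fold change over the square root of F. DESeq2 1.42.0 and limma 3.58.1 served as alternatives. Exon lengths, positions and overlaps come from GENCODE mouse release 21 on GRCm38, and upstream windows from RefSeq. The pipeline was checked on simulated data.

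The members and gene lists were chosen with earlier results of these data known. The text names all 9 members, the 4 most abundant genes of each pathway list, the 5 tested genes closest to Lgr6, and markers that are most abundant or near 0. Mki67, Myh11, Tagln, Des, Cdh1, Nkx2-1, Krt18, Epcam, Krt8, Adgre1, Cd68, Csf1r, Col1a1, Dcn, Gpc2, Gpc4, Gpc6, Fzd1, Tcf7, Apcdd1, Myc, Bambi, Axin2, Notum and Lef1 were named after their values were seen.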

Additional observations from a re-analysis of the deposited data

How the results depend on the processing

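The log2 fold change of Lgr6 kept its sign in all 16 alternatives, from -2.17 to -1.41, and that of Rspo1 did so from 0.45 to 0.94. Both genes have groups that did not overlap, and the value of Lgr6 chose the set, so nothing is read from the kept signs. The count of genes called was 0 in 12 alternatives, 109 with DESeq2, 7308 with the label number as a factor and 4389 on leaving out the pair of control 3 and Gata4 CKO 1. It ranged from 0 to 115 (without Gata4 CKO 1) when 1 library was left out. With the label number as a factor the estimate rests on Gata4 CKO 1 against controls 1 and 2. There Lgr5 turned to -0.81, Rspo2 to -0.32, Rspo3 to 0.092, Rspo4 to 0.39, the proteoglycan median to 0.09 and Rxfp1, alone in its list, to -0.80. Under the same setting Lgr4 moved to -0.92, Znrf3 to -0.61 and the Frizzled and Lrp median to -0.49. Without that pair, Lgr4 turned to 0.149, Znrf3 to 0.078 and Rnf43 to -0.061. Rspo4 turned to 0.01 with sex as a factor, and the Wnt ligand median to 0.002 with no filter on low counts. The labels do not give sex, which was taken from Xist reads. Gata4 CKO 1 and 3 and control 2, with 10322, 50609 and 21820 Xist reads, were taken as female. Gata4 CKO 2 and controls 1 and 3, with 3, 16 and 8 Xist reads, were taken as male. Leaving out 1 library moved Lgr4 between -0.36 and 0.21, Rspo3 between -0.35 and 0.13, Rspo4 between -0.23 and 0.095, Znrf3 between -0.29 and 0.075, Rnf43 between -0.039 and 0.082, and the Wnt ligand median between -0.24 and 0.061. For these the cause was not tested. The replicate block gave -1.64 for Lgr6 and called 0 genes. The deviations of libraries with the same replicate number correlated at 0.112, -0.318 and 0.103, so replicate numbers were not taken as pairs. Gata4 CKO 1 correlated at 0.112 and 0.239 with controls 1 and 2, which share its column label number. Per longest transcript, 2 neighbouring pairs of members separated in Gata4 CKO and 3 in control, against 4 in each per summed exon. Removal of the length and GC trends, and the joint omission, were chosen after the data were seen.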
